A study of Homo sapiens with 6 samples.

Results

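The NF-kB factors and the chemokines, cytokines and feedback genes tied to them were described here in CAL27, an established human line grown from a tongue squamous carcinoma. The 40 genes were found by symbol among the 31368 genes of the expression table, and all 40 were present. They fall into 6 factors, 10 inhibitors and feedback genes, 6 chemokines, 12 cytokines and 6 other targets. The treated libraries came from CAL27 cells kept in 10 mM lactate for 24 h (n = 3), and the comparison libraries from CAL27 cells without treatment (n = 3). Both groups are the same line, so each result applies to 1 tumour-derived culture. The labels do not say whether lactate was given as acid or salt, what the pH was, or whether replicates were separate cultures, so p-values reflect the spread among these 6 libraries alone, and it may be technical. The series asked how lactate and the lysine lactylation it feeds relate to gene regulation in oral squamous carcinoma.

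NF-kB is a family of transcription factors that act as paired subunits, and in resting cells most of them are held in the cytoplasm by inhibitor proteins of the IkB family. Signals from receptors for interleukin-1, tumour necrosis factor or microbial products lead to phosphorylation and destruction of the inhibitor, after which the factors enter the nucleus. Many of their target genes encode chemokines that draw leukocytes, cytokines, and the inhibitors themselves, which gives negative feedback. Keratinocytes and squamous carcinomas are a common source of these chemokines and cytokines.

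Expression was measured as FPKM in polyadenylated RNA, a read count per gene scaled to gene length and to a library total. The whole reads behind the values summed to 30117243, 31622496 and 38772849 in lactate replicates 1 to 3, and to 28937418, 25439360 and 33720337 in untreated replicates 1 to 3. The library totals to which FPKM was scaled differed from these sums and ran from 25163374 to 40220226 reads. On those totals 1 FPKM in a gene of 2 kb rested on 50.3 to 80.4 reads. Of the 7 squamous keratinocyte markers, all 7 reached 1 FPKM, with summed levels of 932 to 956 FPKM in lactate libraries and 933 to 951 FPKM in untreated libraries. SFN made up most of that sum, and the markers moved both ways: KRT17, KRT14, CDH1 and TP63 rose by 25.6%, 39.9%, 22.5% and 21.5%, while KRT5 fell by 23.7% and KRT6A by 17.2%. No leukocyte marker of the 6 in the table reached 1 FPKM; their sum was 0.575 to 0.873 FPKM in lactate libraries and 1.01 to 1.147 FPKM in untreated libraries. No fibroblast marker of the 5 in the table reached it either, with sums of 1.59 to 1.79 FPKM in lactate libraries and 1.04 to 1.19 FPKM in untreated libraries. Of the 3 endothelial markers measured, 1 reached 1 FPKM, with sums of 1.03 to 1.13 FPKM in lactate libraries and 1.13 to 1.41 FPKM in untreated libraries. In such bulk libraries fewer expressing cells and less RNA per cell cannot be told apart.

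Differences were tested with limma on log2(FPKM + 1) in the 11792 genes that reached 1 FPKM in 3 or more libraries. A gene is said to have risen or fallen where its Benjamini-Hochberg p-value, adjusted over these 11792 genes, was under 0.05. Each fold change is lactate over untreated on that log2 scale, where low genes appear to change less than they do. By this rule 58.6% of all genes tested passed, 27.7% as higher and 30.9% as lower in lactate.

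Of the 40 genes, 36 passed the filter on low values; of these 11 were higher and 15 lower in lactate, and 10 did not pass the test. The share that passed has to be read against the 58.6% of all genes. Their median log2 fold change was -0.07, against -0.02 over all genes tested. Their median absolute log2 fold change was 0.17, against 0.16 over all genes, so typical changes were of the size seen across the transcriptome. In 27 of the 36 the lactate and untreated values did not overlap, which was also the case for 65.5% of all genes tested. With a filter at 5 FPKM, 33 of the NF-kB genes remained and 75.8% of them passed, against 73.5% of all 6448 genes. The median log2 fold changes were then -0.0713 for the NF-kB genes and -0.0712 over all genes. The higher genes included IL1A, IL1B, CCL20 and ICAM1, and the lower genes IL6, CXCL2, TRAF1, NFKBIB and NFKBIA. The balance of directions depended on how libraries were scaled. Quantile normalization gave 14 higher and 11 lower, against 3319 and 3224 over all genes. Scaling to the totals of recovered reads gave 13 higher and 10 lower, against 4202 and 2543 over all genes. Removal of a GC content and transcript length trend from each library gave 10 higher and 12 lower, against 2513 and 3141 over all genes (48.8% of 11588).

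**Figure D1:**
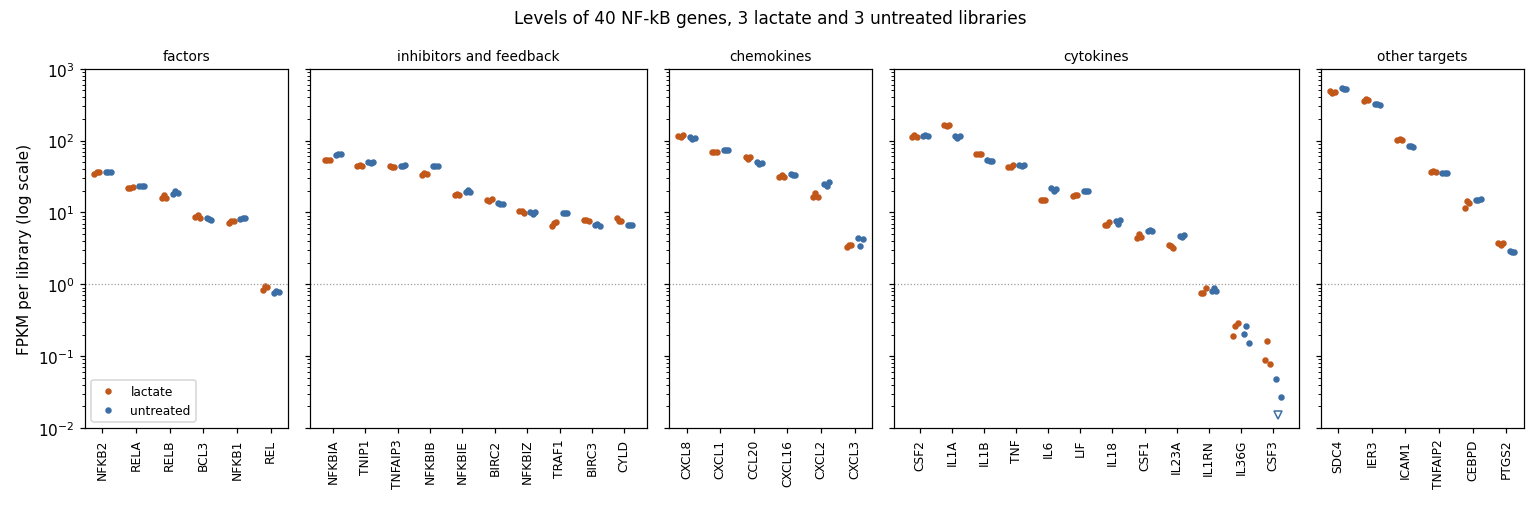
FPKM of each of the 40 genes in every lactate and untreated library (points, n = 3 each), on a log10 axis, grouped by role, with a dotted line at 1 FPKM and an open triangle for the CSF3 value of 0. SDC4, IER3 and IL1A had the highest means in lactate libraries, and IL1RN, REL, IL36G and CSF3 stayed under 1 FPKM in both groups.

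The levels spanned a wide range. SDC4, a cell-surface proteoglycan, was the most abundant of the 40 genes, with 472 ± 11.9 FPKM in lactate libraries and 527 ± 11.4 FPKM in untreated libraries (SD, n = 3 each). IER3, an early response gene that affects cell survival, came next in both groups. IL1A was in the third place in lactate libraries; in untreated libraries CSF2 stood above it. The secreted products with over 100 FPKM in both groups were IL1A, CXCL8 and CSF2. IL36G and CSF3 were at the low end, with at most 16 reads in any library.

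**Figure D2:**
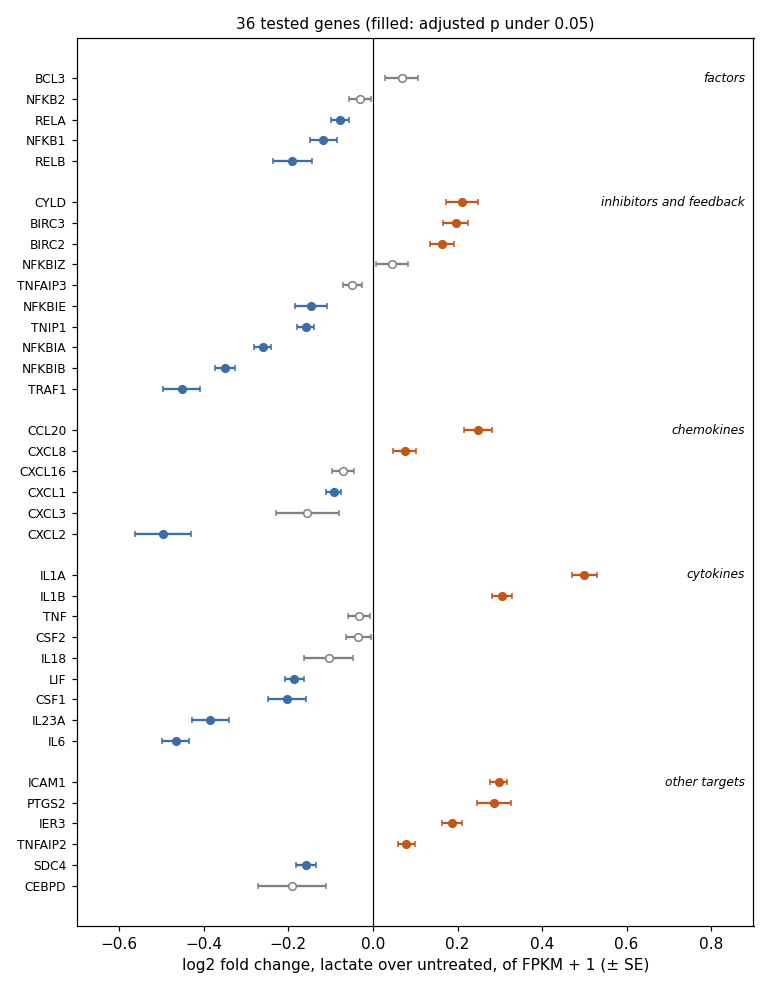
Log2 fold change of the 36 tested genes, lactate over untreated in log2(FPKM + 1) units, with limma's SE, grouped by role. IL1A lies at 0.50 and CXCL2 at -0.50, the 2 ends of the range; filled points passed the test and open points did not.

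Among the factors none rose, 3 fell and 2 did not pass the test, beside 27.7% higher and 30.9% lower of all genes tested. When libraries were scaled to the totals of recovered reads, 1 rose and none fell. The median log2 fold change of the 5 tested was -0.08. RELB, the transcription-activating subunit of the non-canonical pathway, had 15.7, 17.3 and 16.0 FPKM in lactate libraries, against 17.9, 19.8 and 18.7 FPKM in untreated libraries. Every lactate value lay below every untreated one. RELB fell by 13.03% of its untreated mean (log2 fold change -0.19, SE 0.046, adjusted p = 0.00916). NFKB1, which encodes the precursor of a DNA-binding subunit, had 7.19, 7.54 and 7.65 FPKM in lactate libraries and 8.03, 8.25 and 8.26 FPKM in untreated libraries. The groups did not overlap, and the log2 fold change was -0.12 (SE 0.032, adjusted p = 0.0152).

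RELA, the main transcription-activating subunit of the canonical pathway, had 22.1, 21.9 and 22.5 FPKM in lactate libraries and 23.4, 23.4 and 23.6 FPKM in untreated libraries. The groups did not overlap, but the log2 fold change was only -0.08 (SE 0.022, adjusted p = 0.0186). The adjusted p of RELA became 0.0538 without lactate replicate 2 and 0.0623 without untreated replicate 3. The falls of NFKB1 and RELB were called without any 1 library. When libraries were scaled to the totals of recovered reads, none of the 3 falls was called, with adjusted p of 0.222 for NFKB1, 0.761 for RELA and 0.0722 for RELB. With the GC and length trend removed NFKB1 was at -0.08 (adjusted p = 0.063) and RELA at -0.004 (0.899), and with quantile normalization RELA was at -0.007 (0.818).

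NFKB2, the precursor of the non-canonical DNA-binding subunit, averaged 35.8 ± 1.05 FPKM in lactate libraries and 36.5 ± 0.299 FPKM in untreated libraries (SD, n = 3 each, adjusted p = 0.351). BCL3, a nuclear IkB-like co-regulator, averaged 8.66 ± 0.386 FPKM in lactate libraries and 8.21 ± 0.285 FPKM in untreated libraries (adjusted p = 0.178). It was called higher with totals of recovered reads (adjusted p = 0.0238) and with the GC and length trend removed. REL, a further activating subunit best known from lymphocytes, was under the filter. It had 0.826, 0.935 and 0.919 FPKM in lactate libraries (337, 405 and 487 reads), against 0.754, 0.803 and 0.787 FPKM in untreated libraries (281, 266 and 345 reads). All REL values in lactate lay above those in untreated libraries. Of REL's exon bases 5702 are shared with the same-strand entry AC010733.2, and how reads there were assigned is not given, so the level of REL is uncertain.

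The inhibitors and feedback genes split by gene: of 10 tested, 3 rose, 5 fell and 2 did not pass. Of all genes tested 58.6% passed, 27.7% as higher and 30.9% as lower. With the GC and length trend removed none of the 10 rose and 4 fell, beside 48.8% of all genes passing in that setting. The IkB inhibitors were on the lower side. NFKBIA, which encodes the classical inhibitor IkB-alpha and is itself induced by NF-kB, had 53.5, 53.1 and 54.0 FPKM in lactate libraries, against 63.2, 65.5 and 64.4 FPKM in untreated libraries. The groups lay far apart beside their spread, and NFKBIA fell by 16.8% (log2 fold change -0.26, SE 0.021, adjusted p = 5.8e-05). NFKBIB, the beta inhibitor, had 33.6, 35.02 and 34.6 FPKM in lactate libraries and 43.6, 44.8 and 44.0 FPKM in untreated libraries. It fell by 22.0%, without overlap (log2 fold change -0.35, SE 0.024, adjusted p = 3.42e-05). NFKBIE, the epsilon inhibitor, averaged 17.7 ± 0.378 FPKM in lactate libraries and 19.7 ± 0.971 FPKM in untreated libraries (adjusted p = 0.0117), but its call was lost in 4 settings. Its adjusted p was 0.0583 with quantile normalization, 0.134 with the totals of recovered reads, 0.0509 without a filter and 0.485 with the GC and length trend removed, where the log2 fold change was -0.03.

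TRAF1, a signalling adaptor of the tumour necrosis factor receptors and an NF-kB target, changed most in this group. It had 6.44, 7.04 and 7.34 FPKM in lactate libraries, against 9.81, 9.95 and 9.80 FPKM in untreated libraries. The lowest untreated value exceeded the highest lactate value, and TRAF1 fell by 29.6% (log2 fold change -0.45, SE 0.044, adjusted p = 0.000136). TNIP1, which binds polyubiquitin and restrains NF-kB together with TNFAIP3, averaged 44.7 ± 0.418 FPKM in lactate libraries and 49.99 ± 0.748 FPKM in untreated libraries (adjusted p = 0.000488). With quantile normalization the fall of TNIP1 was not called (adjusted p = 0.164).

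TNFAIP3 encodes a ubiquitin-editing enzyme that shuts NF-kB signalling down. It had 44.1, 42.7 and 42.4 FPKM in lactate libraries and 44.1, 44.5 and 45.2 FPKM in untreated libraries. The highest lactate value and the lowest untreated value nearly coincided, and the difference did not pass (log2 fold change -0.05, SE 0.023, adjusted p = 0.105). With median centring TNFAIP3 was called lower (log2 fold change -0.07, adjusted p = 0.0314). NFKBIZ, a nuclear IkB protein needed for a subset of targets in keratinocytes, averaged 10.3 ± 0.299 FPKM in lactate libraries and 9.93 ± 0.401 FPKM in untreated libraries (adjusted p = 0.325). With totals of recovered reads NFKBIZ was called higher (adjusted p = 0.0305).

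The 3 that rose act on ubiquitin chains. CYLD, a deubiquitinase, had 8.33, 7.71 and 7.61 FPKM in lactate libraries, against 6.62, 6.64 and 6.76 FPKM in untreated libraries. All CYLD values in lactate were the higher ones, and the log2 fold change was 0.21 (SE 0.038, adjusted p = 0.00232). BIRC2 and BIRC3 are ubiquitin ligases of the inhibitor-of-apoptosis family. BIRC2 averaged 14.97 ± 0.375 FPKM in lactate libraries and 13.3 ± 0.157 FPKM in untreated libraries (adjusted p = 0.00174). BIRC3 averaged 7.80 ± 0.136 FPKM in lactate libraries and 6.69 ± 0.162 FPKM in untreated libraries (adjusted p = 0.00118). The transcripts of all 3 were low in GC, at 39.7%, 38.0% and 34.8%. After the GC content and length trend was removed from each library, the log2 fold changes were 0.005 for CYLD, 0.02 for BIRC2 and 0.02 for BIRC3, with adjusted p of 0.922, 0.612 and 0.636. The same removal left NFKBIA at -0.12 (adjusted p = 0.00119), NFKBIB at -0.22 (5.62e-05) and TRAF1 at -0.36 (0.000271).

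**Figure D3:**
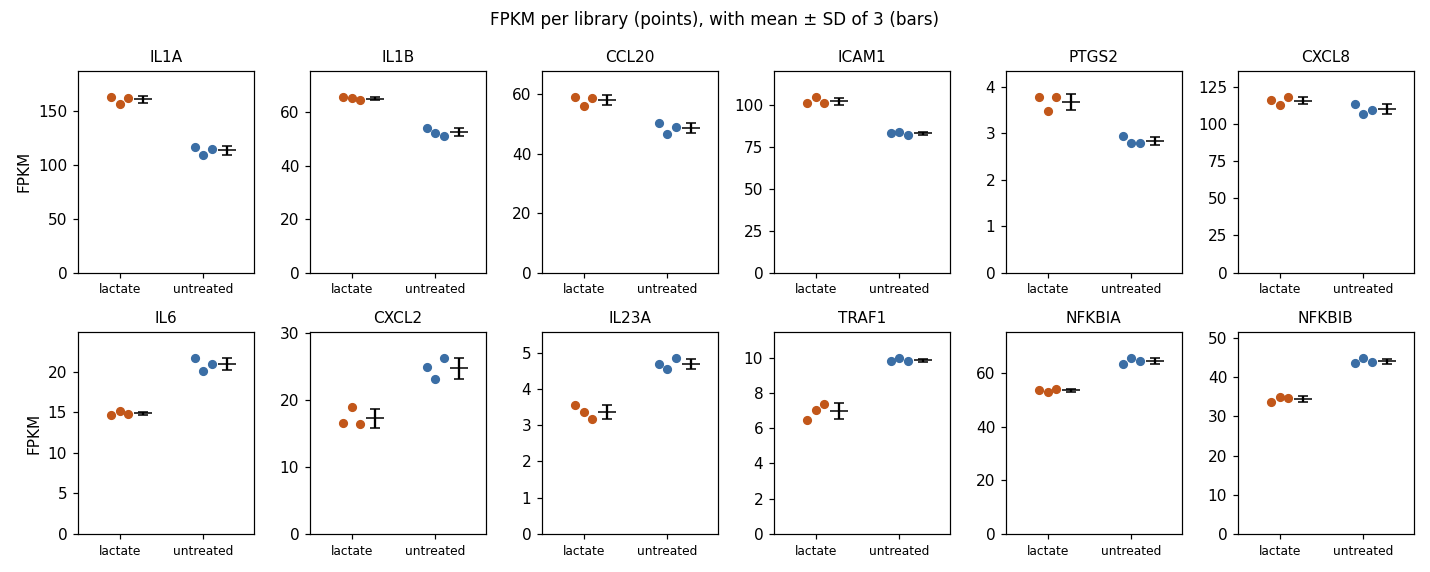
FPKM in each library for 12 genes of the set, lactate libraries left of untreated libraries, with the group mean ± SD beside the points and each vertical axis starting at 0. IL1A, IL1B, CCL20 and ICAM1 are higher in every lactate library, NFKBIA, TRAF1, CXCL2 and IL6 are lower in every lactate library, and the CXCL8 groups overlap.

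Among the 6 chemokines 2 rose, 2 fell and 2 did not pass, beside 27.7% higher and 30.9% lower of all genes tested. CCL20, which draws cells that carry the receptor CCR6, had 59.1, 56.1 and 58.7 FPKM in lactate libraries, against 50.2, 46.7 and 49.0 FPKM in untreated libraries. No untreated value reached the lactate range, and CCL20 rose by 19.1% (log2 fold change 0.25, SE 0.033, adjusted p = 0.000563). CXCL2, a neutrophil chemokine, had 16.5, 18.9 and 16.4 FPKM in lactate libraries, against 24.9, 23.1 and 26.2 FPKM in untreated libraries. The groups did not overlap, and CXCL2 fell by 30.3% (log2 fold change -0.50, SE 0.066, adjusted p = 0.000754).

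CXCL1, its close paralog, had 68.8, 69.2 and 69.4 FPKM in lactate libraries and 74.7, 73.6 and 73.1 FPKM in untreated libraries. Its values did not overlap either, but the fall was small (log2 fold change -0.09, SE 0.018, adjusted p = 0.0032), and with quantile normalization CXCL1 was called higher (log2 fold change 0.05, adjusted p = 0.0357). Its call was lost with the totals of recovered reads (adjusted p = 0.316) and with the GC and length trend removed (0.104). CXCL3, the third of these paralogs, had 3.33, 3.54 and 3.54 FPKM in lactate libraries and 4.35, 3.40 and 4.24 FPKM in untreated libraries. Untreated replicate 2 lay among the lactate values, and the difference did not pass (adjusted p = 0.109). Without that library CXCL3 was called lower (log2 fold change -0.24, adjusted p = 0.0032), as it was with quantile normalization (-0.20, 0.0458). Reads of 50 bases from these 3 genes can match elsewhere, since 4.81% of such stretches of CXCL1, 12.5% of CXCL2 and 6.01% of CXCL3 occur in another annotated gene.

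CXCL8, which encodes interleukin-8, was the most abundant chemokine, with 116, 113 and 118 FPKM in lactate libraries and 113, 107 and 110 FPKM in untreated libraries. The groups overlapped at untreated replicate 1. Its log2 fold change of 0.07 barely passed (SE 0.027, adjusted p = 0.0466). The call was lost without lactate replicate 1 (adjusted p = 0.101), without lactate replicate 3 (0.146), without untreated replicate 2 (0.129) and without untreated replicate 3 (0.108). It was also lost with median centring (0.138), without a filter (0.143), without a variance trend (0.0953) and with the GC and length trend removed, where the log2 fold change was 0.007 (0.806). With quantile normalization it was 0.24 (0.000244). CXCL16, a membrane-bound chemokine, averaged 31.8 ± 0.733 FPKM in lactate libraries and 33.5 ± 0.74 FPKM in untreated libraries (adjusted p = 0.0511). It was called lower without lactate replicate 2 (adjusted p = 0.029) and with median centring (0.019). The filter at 5 FPKM and voom on recovered reads also gave a call of lower.

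CXCL8, CXCL1, CXCL3 and CXCL2 lie in that order on chromosome 4 of GRCh38, at chr4:73740506-73743716 and chr4:73869393-73871242 on the plus strand, and chr4:74036589-74038807 and chr4:74097035-74099293 on the minus strand. CXCL8 was called higher, but this call was lost in 8 of the 16 alternative settings. CXCL2 was called lower, CXCL1 lower but higher with quantile normalization, and CXCL3 did not pass. Their promoters are shown because all 4 hold the same match to GGANNTTCC, a short form of the NF-kB site, searched on both strands (as GGAANNTCC on the other). The stretches of 80 bases come from RefSeq (GRCh38.p14) and run 5′ to 3′ on the strand of the gene, with the match in capitals. They span chr4:73869280-73869359 (plus) for CXCL1, chr4:74099228-74099307 (minus) for CXCL2, chr4:74038723-74038802 (minus) for CXCL3 and chr4:73740443-73740522 (plus) for CXCL8.
CXCL1: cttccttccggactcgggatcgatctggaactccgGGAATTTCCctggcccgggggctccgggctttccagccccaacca
CXCL2: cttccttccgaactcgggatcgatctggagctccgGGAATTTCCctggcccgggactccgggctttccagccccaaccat
CXCL3: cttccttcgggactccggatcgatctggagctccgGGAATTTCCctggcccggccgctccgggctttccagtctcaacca
CXCL8: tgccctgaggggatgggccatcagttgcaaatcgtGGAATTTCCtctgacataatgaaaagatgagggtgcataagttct
The match begins 78 bases before the annotated start in CXCL1 and CXCL3, 77 in CXCL2 and 91 in CXCL8. CXCL1, CXCL2 and CXCL3 share most of the bases around it, and CXCL8 does not. With the same 9 bases at nearly the same place, CXCL1 had a log2 fold change of -0.09 and CXCL2 of -0.50; the difference between these was not tested.

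The inhibitor genes that passed the test and hold such a match were NFKBIA, NFKBIB, TNIP1, TRAF1 and CYLD. They are shown for comparison with the chemokines, from chr14:35404786-35404865 (minus) and chr14:35404920-35404999 (minus) for NFKBIA, chr19:38899907-38899986 (plus) for NFKBIB, chr5:151081031-151081110 (minus) for TNIP1, chr9:120929122-120929201 (minus) for TRAF1 and chr16:50741862-50741941 (plus) for CYLD.
NFKBIA, near match: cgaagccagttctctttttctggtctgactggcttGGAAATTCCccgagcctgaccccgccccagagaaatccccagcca
NFKBIA, far match: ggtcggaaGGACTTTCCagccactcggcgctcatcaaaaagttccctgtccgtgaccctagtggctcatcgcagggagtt
NFKBIB: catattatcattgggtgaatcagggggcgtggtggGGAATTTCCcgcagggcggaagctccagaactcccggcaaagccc
TNIP1: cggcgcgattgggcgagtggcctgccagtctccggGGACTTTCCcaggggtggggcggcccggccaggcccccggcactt
TRAF1: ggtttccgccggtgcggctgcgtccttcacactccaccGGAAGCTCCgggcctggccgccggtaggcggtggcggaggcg
CYLD: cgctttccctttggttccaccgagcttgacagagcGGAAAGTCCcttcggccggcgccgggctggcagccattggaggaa
NFKBIB carries the same 9 bases as the chemokines, 27 bases before its start, and a match on the other strand at 10 bases before it, left in lower case here. NFKBIA has 2 matches, at 81 and 242 bases before its start. The match in TNIP1 begins 41 bases and that in CYLD 189 bases before the start, and that in TRAF1 9 bases after it; those of TRAF1 and CYLD are on the other strand. NFKBIA, NFKBIB, TNIP1 and TRAF1 fell in lactate and CYLD rose, so a match was found on both sides. Only CYLD stood on the higher side, and with the GC and length trend removed its log2 fold change was 0.005 (adjusted p = 0.922). A match is a run of letters in the window and not a measured binding site.

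The cytokines held the gene with the largest rise, IL1A, and one with a fall of nearly the same size, IL6. Of 9 tested, 2 rose, 4 fell and 3 did not pass, beside 27.7% higher and 30.9% lower of all genes tested. A further 3 cytokines were under the filter. IL1A, the alpha form of interleukin-1 that epithelial cells store and release on injury, had 163, 157 and 163 FPKM in lactate libraries, against 117, 109 and 115 FPKM in untreated libraries. The groups lay far apart, and IL1A rose by 41.7% (log2 fold change 0.50, SE 0.029, adjusted p = 2.05e-05). IL1B, the secreted beta form, had 65.7, 65.2 and 64.5 FPKM in lactate libraries, against 54.1, 52.4 and 51.3 FPKM in untreated libraries. It was higher in every lactate library, by 23.9% of the mean (log2 fold change 0.30, SE 0.024, adjusted p = 5.79e-05). IL1A and IL1B are neighbours on chromosome 2, both on the minus strand at chr2:112773915-112784590 and chr2:112829751-112836903, with 45160 bases between them. Both rises passed under all 16 alternative settings.

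IL6, a cytokine of the acute-phase response, had 14.7, 15.1 and 14.8 FPKM in lactate libraries, against 21.6, 20.1 and 20.9 FPKM in untreated libraries. The groups did not approach each other, and IL6 fell by 28.99% (log2 fold change -0.47, SE 0.031, adjusted p = 3.29e-05). Of IL6's exon bases 428 overlap an antisense entry, AC073072.1, which had 0.853, 1.204 and 1.17 FPKM in lactate libraries and 1.76, 1.25 and 1.67 FPKM in untreated libraries. Whether strand was used in counting is not given, so reads of the pair cannot be told apart there. IL23A, a subunit of interleukin-23, had 3.56, 3.36 and 3.17 FPKM in lactate libraries, against 4.68, 4.55 and 4.84 FPKM in untreated libraries. It fell by 28.4%, without overlap (log2 fold change -0.38, SE 0.044, adjusted p = 0.000271).

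LIF, a cytokine of the interleukin-6 family, averaged 17.2 ± 0.215 FPKM in lactate libraries and 19.8 ± 0.079 FPKM in untreated libraries (SD, n = 3 each, adjusted p = 0.000368). It too overlaps an antisense entry, AC004264.1, over 175 exon bases. CSF1, the growth factor of macrophages, averaged 4.71 ± 0.326 FPKM in lactate libraries and 5.56 ± 0.068 FPKM in untreated libraries (adjusted p = 0.00626). IL6, LIF and CSF1 passed as lower in all 16 alternative settings, and IL23A in the 15 that tested it, since it was under the filter at 5 FPKM.

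The 3 tested cytokines that did not pass were CSF2, TNF and IL18. CSF2, the granulocyte-macrophage growth factor, averaged 115 ± 3.35 FPKM in lactate libraries and 118 ± 3.34 FPKM in untreated libraries (adjusted p = 0.336). TNF, the main inducer of the canonical pathway, averaged 43.8 ± 1.21 FPKM in lactate libraries and 44.8 ± 0.657 FPKM in untreated libraries (adjusted p = 0.297). After removal of the GC and length trend both were called higher (log2 fold change 0.13 each, adjusted p = 0.0128 for CSF2 and 0.00399 for TNF). CSF2 was also called higher with quantile normalization (log2 fold change 0.13, adjusted p = 0.0112). IL18, an interleukin-1 family cytokine of epithelia, averaged 6.90 ± 0.421 FPKM in lactate libraries and 7.503 ± 0.55 FPKM in untreated libraries (adjusted p = 0.156). IL18 was called lower without untreated replicate 2 (adjusted p = 0.0345) and with the GC and length trend removed (0.0155).

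IL1RN, the natural antagonist of interleukin-1, was under the filter, with 0.767, 0.760 and 0.875 FPKM in lactate libraries (77, 81 and 114 reads) and 0.818, 0.895 and 0.815 FPKM in untreated libraries (75, 73 and 88 reads). The groups overlapped. IL36G, an epidermal interleukin-1 family cytokine, had 8, 12 and 16 reads in lactate libraries and 8, 9 and 7 reads in untreated libraries. CSF3, the granulocyte growth factor, had 6, 12 and 7 reads in lactate libraries and 3, 0 and 2 reads in untreated libraries. These counts are too low for a fold change.

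IL6 and ICAM1 also hold a match to GGANNTTCC, 72 and 186 bases before their RefSeq starts. Their stretches, at chr7:22727093-22727172 (plus) and chr19:10270899-10270978 (plus), were added after the values were seen, because the 2 genes moved in opposite directions.
IL6: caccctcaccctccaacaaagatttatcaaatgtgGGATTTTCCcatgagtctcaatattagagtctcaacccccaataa
ICAM1: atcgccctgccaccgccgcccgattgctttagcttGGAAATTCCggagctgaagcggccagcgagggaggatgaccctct
The 9 bases of ICAM1 are the same as in the near match of NFKBIA, which fell.

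Among the 6 other targets 4 rose, 1 fell and 1 did not pass, beside 27.7% higher and 30.9% lower of all genes tested. Their median log2 fold change was 0.13. ICAM1, the endothelial and epithelial adhesion molecule that leukocytes bind, had 101, 105 and 101 FPKM in lactate libraries, against 83.6, 83.8 and 82.4 FPKM in untreated libraries. It was higher in every lactate library, by 23.2% of the mean (log2 fold change 0.30, SE 0.021, adjusted p = 3.65e-05). The antisense entry AC011511.5, which overlaps 815 of ICAM1's exon bases, stayed at or below 0.104 FPKM. PTGS2, the inducible cyclooxygenase of prostaglandin synthesis, had 3.78, 3.48 and 3.78 FPKM in lactate libraries, against 2.93, 2.79 and 2.78 FPKM in untreated libraries. It rose by 29.8%, without overlap (log2 fold change 0.29, SE 0.041, adjusted p = 0.000764).

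IER3 had 354, 376 and 366 FPKM in lactate libraries, against 322, 323 and 317 FPKM in untreated libraries. All lactate values were the higher ones (log2 fold change 0.19, SE 0.024, adjusted p = 0.000444). TNFAIP2, a gene first found as induced by tumour necrosis factor, averaged 37.1 ± 0.261 FPKM in lactate libraries and 35.1 ± 0.321 FPKM in untreated libraries (SD, n = 3 each, adjusted p = 0.0106). SDC4 fell by 10.3% (log2 fold change -0.16, SE 0.024, adjusted p = 0.00101), but with quantile normalization it was called higher (log2 fold change 0.08, adjusted p = 0.00905). CEBPD, a transcription factor of the acute-phase response, had 11.4, 14.6 and 13.5 FPKM in lactate libraries, against 14.9, 15.01 and 15.5 FPKM in untreated libraries. Its groups did not overlap, yet lactate replicate 1 lay well under the other two and the difference did not pass (adjusted p = 0.083). CEBPD was called lower without lactate replicate 2 (adjusted p = 0.015) and with voom on recovered reads (0.0113).

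Of the 26 genes that passed, 15 (57.7%) passed in the same direction in every alternative setting that tested them, 7 higher and 8 lower. Over all genes this was so for 3635 of the 6914 that passed (52.6%). The 7 were IL1A, IL1B, CCL20, ICAM1, PTGS2, IER3 and TNFAIP2. The 8 were IL6, CXCL2, TRAF1, IL23A, NFKBIB, NFKBIA, CSF1 and LIF. No factor was in either group.

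**Figure D4:**
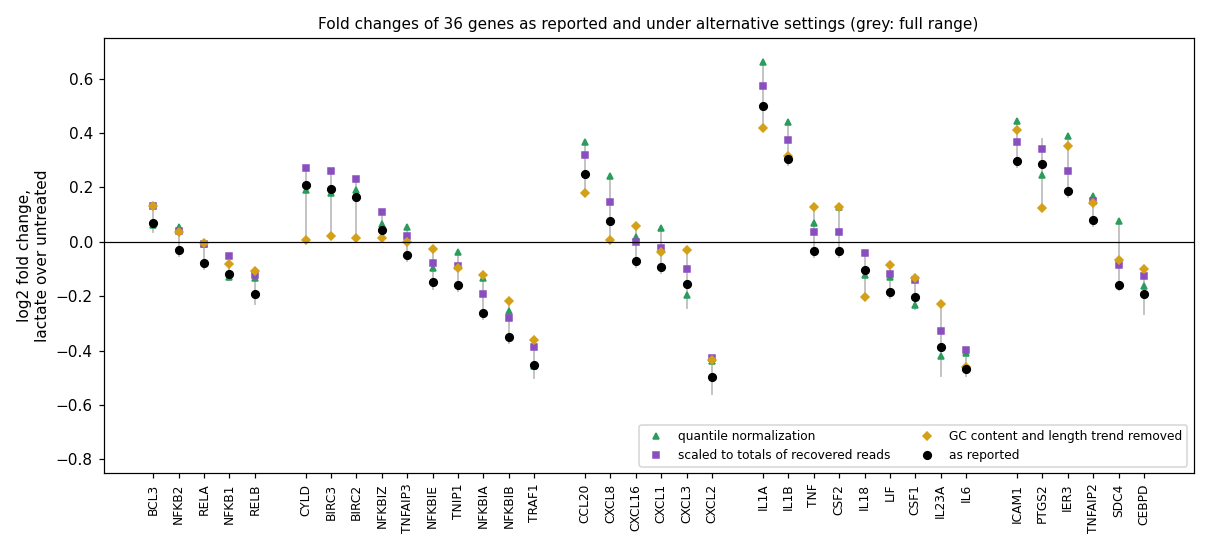
Log2 fold change of the tested genes as reported (black) and with quantile normalization, totals of recovered reads or the GC and length trend removed, lactate over untreated; grey bars span all 16 alternative settings. The plotted points of IL1A lie between 0.42 and 0.66 and those of IL6 between -0.47 and -0.40, whereas CXCL1 and SDC4 are above 0 with quantile normalization and below 0 as reported.

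The direction of change moved with base composition in the 40 genes as in all genes. The genes that rose had a median GC content of 39.1% in their longest transcript, and those that fell 54.6%. Over all protein-coding genes tested these medians were 41.9% and 53.7%. Spearman's rho between GC content and log2 fold change was -0.37 over the 36 tested genes and -0.48 over 9881 protein-coding genes, given as a description across genes that share the same libraries. ICAM1, IER3 and TNFAIP2 rose with a GC content of 56.9%, 58.5% and 62.0%, while IL6 and CXCL2 fell at 44.5% and 46.0%. With the trend removed, the log2 fold change was 0.42 for IL1A (adjusted p = 1.13e-05), 0.32 for IL1B (4.32e-05), 0.18 for CCL20 (0.000509) and 0.41 for ICAM1 (7.01e-06). On the lower side it was -0.46 for IL6 (3.07e-05), -0.43 for CXCL2 (0.00299) and -0.23 for IL23A (0.00311). PTGS2, with a GC content of 36.9%, was then at 0.12 (0.0221), LIF at -0.08 (0.013), CSF1 at -0.13 (0.0176) and RELB at -0.11 (0.0124), all smaller than before. IER3 was at 0.35 (1.03e-05) and TNFAIP2 at 0.14 (0.00246), both larger.

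**Figure D5:**
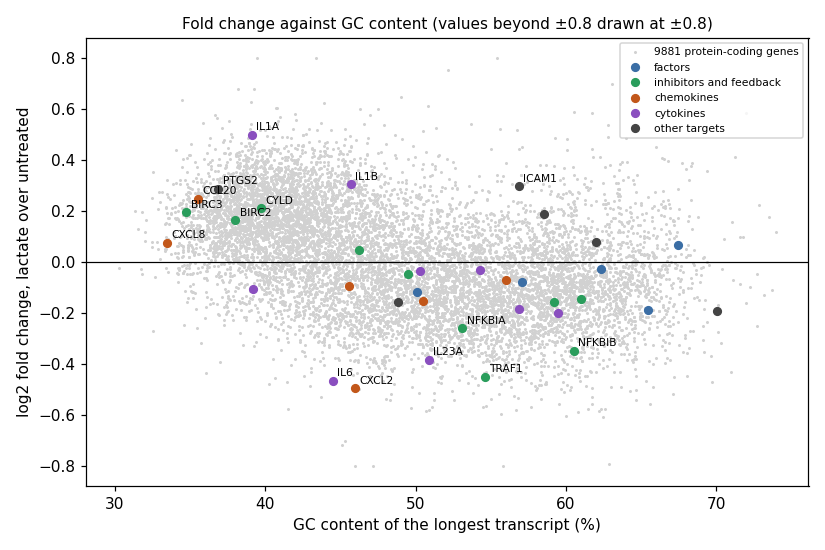
Log2 fold change, lactate over untreated, against the GC content (%) of the longest transcript for the 36 tested genes, over all protein-coding genes tested in grey, with values beyond 0.8 drawn at the edge. The 11 genes that rose have a median GC content of 39.1% and the 15 that fell 54.6%, while IL6 (44.5%) and CXCL2 (46.0%) lie below 0 and ICAM1 (56.9%) above 0.

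Because the genes were gathered as NF-kB factors, feedback genes and known targets, an NF-kB motif in their promoters is close to what defined the set and is given as a description. RefSeq promoter windows, from 250 bases before to 50 after the start, were found for 31 of the 40 genes. GGANNTTCC occurred in at least 1 window of 17 of these 31 genes (54.8%), against 1521 of 27305 genes (5.57%). By window it was in 17 of 46 (37.0%), against 4.56% of all 35116 windows. The looser NF-kB consensus, searched separately and free to overlap the short motif, was found in 25 of the 31 (80.6%), against 36.3% of genes. By call, the short motif was in 3 of 10 genes that rose, 8 of 11 that fell and 5 of 7 that did not pass. By role it was in 4 of 5 chemokines, 7 of 9 inhibitors and feedback genes, 3 of 5 factors, 2 of 8 cytokines and 1 of 4 other targets. The AU-rich nonamer of unstable mRNAs, TTATTTATT, was searched over the whole of every annotated transcript, coding parts included. It occurred in 14 of the 40 genes (35%), 1 of them under the filter, against 14.8% of protein-coding genes tested. It was in 5 of the 11 that rose, among them CXCL8, IL1B and PTGS2, and in 4 of the 15 that fell, among them CXCL1, CXCL2 and LIF. Over all protein-coding genes it was in 21.1% of those that rose and 8.77% of those that fell. IL1A and IL6 did not hold this nonamer, and other AU-rich sequences were not searched.

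BIRC3 and BIRC2 are neighbours on chromosome 11, at chr11:102317450-102339403 and chr11:102347211-102378670, with 7807 bases between them, and both rose. RELB and BCL3 lie on chromosome 19 with 241385 bases between them; RELB fell and BCL3 did not pass.

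Genes around the set were taken from 6 lists. In each list 41.2% to 72.4% of the genes tested passed. Over all genes 58.6% did, 27.7% as higher and 30.9% as lower. Among receptors and adaptors 6 rose, 8 fell and 6 did not pass of 20 tested. The receptor chains IL1RAP and IL18R1 and the kinase IRAK4 rose, with log2 fold changes of 0.40, 0.46 and 0.34. IL1RAP, the shared chain of interleukin-1 receptors, averaged 5.27 ± 0.173 FPKM in lactate libraries and 3.74 ± 0.211 FPKM in untreated libraries (SD, n = 3 each, adjusted p = 0.00021). The adaptor MYD88, which links these receptors to IRAK kinases, averaged 4.96 ± 0.111 FPKM in lactate libraries and 6.28 ± 0.189 FPKM in untreated libraries (adjusted p = 0.000305). IRAK1 fell by 22.0%, with 71.9 ± 2.09 FPKM in lactate libraries and 92.2 ± 1.92 FPKM in untreated libraries, and the death-domain adaptor FADD fell by 17.3%. IRAK4 and IRAK1, kinases of the same complex, thus moved in opposite directions. The GC content of the longest transcript was 41.7% for IL1RAP, 41.7% for IL18R1 and 42.1% for IRAK4. It was 51.9% for MYD88, 63.0% for IRAK1 and 58.6% for FADD. Medians over all protein-coding genes tested were 41.9% for those that rose and 53.7% for those that fell.

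Among kinases and ubiquitin enzymes 15 rose, 6 fell and 8 did not pass of 29 tested, with a median log2 fold change of 0.08. MAP3K7, the kinase that activates the IkB kinases, rose with a log2 fold change of 0.39. Its ubiquitin-binding partners TAB2 and TAB3 rose too, with 0.42 and 0.40. MAP3K7 averaged 6.25 ± 0.122 FPKM in lactate libraries and 4.55 ± 0.173 FPKM in untreated libraries (adjusted p = 0.000105). IKBKE, an IkB kinase relative of the interferon response, fell to 8.11 ± 0.284 FPKM in lactate libraries, against 11.6 ± 0.61 FPKM in untreated libraries (adjusted p = 0.000105). RBCK1, a subunit of the linear ubiquitin ligase, and TNIP2, a ubiquitin-binding partner of TNFAIP3, also fell, with log2 fold changes of -0.23 and -0.22. The GC content of the longest transcript was 38.7% for MAP3K7, 39.8% for TAB2 and 39.1% for TAB3. For IKBKE, RBCK1 and TNIP2 it was 58.7%, 64.6% and 61.8%. The medians over all protein-coding genes tested were 41.9% for those that rose and 53.7% for those that fell. With the GC and length trend removed, 7 genes of this list rose and 6 fell, beside 48.8% of all genes passing in that setting.

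Among 10 regulators of cytokine mRNA decay and binding 4 rose, 3 fell and 3 did not pass. KHSRP, which promotes decay of AU-rich mRNAs, fell by 25.2%, with 71.8 ± 0.557 FPKM in lactate libraries and 96.0 ± 1.59 FPKM in untreated libraries (adjusted p = 1.23e-05). ZC3H12A, an endonuclease that cuts IL6 mRNA, averaged 24.2 ± 0.357 FPKM in lactate libraries and 29.5 ± 0.488 FPKM in untreated libraries (adjusted p = 8.01e-05). ZFP36, another decay factor for AU-rich mRNAs, rose to 30.2 ± 0.391 FPKM in lactate libraries, against 26.8 ± 1.18 FPKM in untreated libraries (adjusted p = 0.00358). N4BP1 rose with a log2 fold change of 0.28. RC3H2 was at 0.13 (adjusted p = 0.0177), but at -0.08 after the GC and length trend was removed. Its adjusted p was 0.0574 without lactate replicate 1, 0.0506 without lactate replicate 2 and 0.0543 without untreated replicate 2. HNRNPD was at -0.07 (adjusted p = 0.0438), but at 0.01 with quantile normalization, and its adjusted p was 0.0772 to 0.112 without any 1 library other than lactate replicate 1.

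A further list held 14 receptor and binding-protein genes for the chemokines and cytokines of the set; the receptors of interleukin-1, interleukin-18, interleukin-36 and tumour necrosis factor were among the receptors and adaptors. Of the 14, 10 were in the table and 5 passed the filter, of which 1 rose and 2 fell. LIFR, the LIF receptor, averaged 1.38 ± 0.041 FPKM in lactate libraries and 0.864 ± 0.0298 FPKM in untreated libraries (adjusted p = 0.000631). IL6R, the IL6 receptor, had a log2 fold change of -0.11 (adjusted p = 0.016), and CSF1R, the CSF1 receptor, one of -0.17 (adjusted p = 0.0452). Without lactate replicate 3 the adjusted p of IL6R was 0.064, and that of CSF1R was 0.052 to 0.127 without any 1 library.

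Of 13 other chemokines and cytokines tested, 6 rose, 1 fell and 6 did not pass, with a median log2 fold change of 0.17. IL11, a cytokine of the interleukin-6 family, averaged 11.4 ± 0.183 FPKM in lactate libraries and 7.62 ± 0.52 FPKM in untreated libraries (log2 fold change 0.52, adjusted p = 8.47e-05). IL32 averaged 23.0 ± 0.99 FPKM in lactate libraries and 17.5 ± 0.402 FPKM in untreated libraries, and CX3CL1, a membrane-bound chemokine, 7.11 ± 0.0214 FPKM in lactate libraries and 5.41 ± 0.262 FPKM in untreated libraries. CCL2, a monocyte chemokine, fell to 34.8 ± 1.08 FPKM in lactate libraries, against 47.9 ± 0.463 FPKM in untreated libraries (log2 fold change -0.45, adjusted p = 2.05e-05). Thus IL11 was higher in lactate while IL6 and LIF of the same cytokine family were lower.

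Of 17 other NF-kB target genes tested, 4 rose, 3 fell and 10 did not pass. SQSTM1, an autophagy receptor and signalling scaffold, fell by 29.2%, with 100.04 ± 3.09 FPKM in lactate libraries and 141 ± 3.19 FPKM in untreated libraries (adjusted p = 1.8e-05). IRF1, an interferon-related transcription factor, averaged 4.33 ± 0.0731 FPKM in lactate libraries and 5.10 ± 0.0659 FPKM in untreated libraries (adjusted p = 0.00118). SOD2, the mitochondrial superoxide dismutase, had a log2 fold change of -0.09 (adjusted p = 0.0123), but of 0.01 with quantile normalization. BCL2A1, a survival protein of the BCL2 family, rose with 31 to 75 reads per library (log2 fold change 0.38, adjusted p = 0.00498). TNFAIP8 was at 0.19 (adjusted p = 0.00656), and at 0.01 after the GC and length trend was removed. SAA2, an acute-phase protein, was at 0.22 (adjusted p = 0.00913), and as a near-identical copy of SAA1 its reads could be split.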

How the data were processed

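RNA-seq of polyadenylated RNA was analysed in 6 libraries, grouped by the treatment in the labels. The authors deposited FPKM for 31368 genes; HISAT2 2.0.5, StringTie 1.3.3b, featureCounts 1.5.0-p3, fastp and build hg38 are named per the submitters' processing notes. No source used here gives the annotation release or the use of strand. Whole reads were recovered from the FPKM values for 31367 genes, each library lying within 0.003 of a whole number. They came to 96.1% to 97.3% of the FPKM denominators in lactate libraries and 101.1% to 102.3% in untreated libraries. Coordinates, exon overlaps and GC content come from GENCODE 29 (GRCh38), promoters from RefSeq.

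limma 3.58.1 (R 4.3.3) was fitted to log2(FPKM + 1) with a variance trend, robust moderation and group as the only term, for genes that reached 1 FPKM in 3 or more libraries. The fit was also run on simulated libraries without a GC or scaling shift, so that run does not bear on such shifts here. P-values were adjusted over all genes tested (Benjamini-Hochberg, threshold 0.05), and the SE is limma's moderated one. Python 3.11.15 with numpy 2.4.6, pandas 2.3.3 and scipy 1.17.1 did the rest.

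The genes and lists were chosen with earlier results of these data known. The rule for named genes gave values per library for the 3 called genes with the largest fold change in each role, for NFKB1, RELA, NFKBIA, TNFAIP3, CXCL1, CXCL2, CXCL3, CXCL8, IL1A, IL1B, IL1RN, IL6 and ICAM1, and for genes under the filter; CYLD and CEBPD were added after their values were seen. From each list up to 3 called genes per direction were named by smallest p. Promoters were shown for chemokine and inhibitor genes that passed and held a match; CXCL3, IL6 and ICAM1 were added after the values were seen.

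The alternatives were quantile normalization, median centring, scaling to totals of recovered reads, a pseudocount of 0.1, no filter, a filter at 5 FPKM, no variance trend, removal of the GC and length trend (splines with 4 degrees of freedom), voom on recovered reads, a replicate block, and each library left out.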

Additional observations from a re-analysis of the deposited data

How the results depend on the processing

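Over 16 alternative settings the 36 tested genes gave 573 values, of which 528 kept the side of the threshold and turned no call around. These include turns of direction in genes that passed neither as reported nor in the alternative setting. At a filter of 5 FPKM, which leaves 6448 genes, 1786 genes were higher in lactate, against 3265 at 1 FPKM. With totals of recovered reads 4202 genes were higher and 2543 lower, and with quantile normalization 3319 and 3224. The median log2 fold change of the NF-kB genes was 0.05 with quantile normalization, -0.10 with median centring, -0.0052 with totals of recovered reads, -0.041 without a filter and -0.0025 with the GC and length trend removed, against -0.07. The cause was not tested, except that testing without a filter adds 4 genes. Scaling to totals of recovered reads also raises lactate values over untreated ones by definition. Those totals were 96.1% to 97.3% of the FPKM denominators in lactate libraries and 101.1% to 102.3% in untreated libraries. Among genes that passed in either setting, signs turned with quantile normalization for CXCL1 (0.051), CSF2 (0.13), SDC4 (0.076), HNRNPD (0.013) and SOD2 (0.0055), and with the GC and length trend removed for CSF2 (0.13), TNF (0.13) and RC3H2 (-0.077). NFKB2, TNFAIP3, CXCL16 and TNF, which passed in neither, also turned with quantile normalization, NFKB2 and CXCL16 with the GC and length trend removed, and NFKB2, TNFAIP3, CSF2 and TNF with totals of recovered reads. With a library left out, 10 to 11 of the NF-kB genes were higher and 14 to 17 lower; over all genes 2741 to 3056 were higher and 3226 to 3461 lower.

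Lactate and untreated samples share replicate numbers, and the labels do not say whether these pair them. Deviations of same-numbered samples from their group means had Pearson r of 0.053, 0.067 and -0.004. Samples with different numbers had r of -0.071 to 0.022. Such correlations cannot show how the cultures were set up, so whether the samples are paired is left undecided. With a replicate block 11 of the NF-kB genes were higher and 15 lower, and over all genes 3257 and 3782. With 3 libraries a group a difference of -13.2% in CXCL3 did not pass, and the 0 to 16 reads of IL36G and CSF3 give no fold change.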
